A study of Sus scrofa with 5 samples.

Results

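The loci described here are stretches of the pig genome that miRDeep2 called as candidate microRNA (miRNA) hairpins outside the miRNA catalogue and that had a read count in at least 2 of 4 cell types. They numbered 229 of the 784 listed predictions. Of the 783 predictions with any count, 29.2% were shared in this sense, and 107 of the shared loci had counts in 2 cell types, 90 in 3 and 32 in all 4. They were selected on their read counts, so how many types a locus was listed in is a description and was not tested.

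Small RNA was sequenced from 5 samples of 4 porcine cell types. Blastocysts (BLs, libraries BL_1 and BL_2) were hatched embryos at day 7 that developed from oocytes activated electrically without sperm, so they carry no paternal genome. ES-like cells were a line cultured with stem cell factor and basic fibroblast growth factor on mouse embryonic fibroblast feeders, and embryoid bodies (PEBs) were clumps of the same kind of cells grown in hanging drops in the absence of these cytokines. Fetal fibroblasts (PFFs) were cultured from the trunk tissue of mixed-breed fetuses early in gestation, and ES-like cells, PEBs and PFFs had 1 library each. No genetic modification was named for any sample, and a difference between 2 cultured cell types therefore has no replicate check.

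A miRNA precursor is an RNA hairpin from which the enzymes Drosha and Dicer cut a short mature strand, which guides Argonaute proteins to messenger RNAs. Several hairpins are often transcribed together from 1 stretch of DNA, and in early embryos and pluripotent cells a few such clusters can supply a large part of all miRNAs. miRDeep2 proposes a hairpin where aligned reads stack up at the places that such cutting would leave, and it scores each proposal in each library from the read stack and the fold of the precursor.

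Reported mature miRNA reads numbered 113743 from BL_1, 2782150 from BL_2, 6372500 from ES-like cells, 15849954 from PEBs and 27071931 from PFFs. These are sums of the deposited columns, and a summary sheet of the study lists those of ES-like cells and PFFs the other way round. The names of the deposited columns were kept. Counts of predicted loci were divided by these totals to give reads per 1000000 reported mature miRNA reads (RPM). Predicted loci are not part of the totals, so their summed RPM has no fixed upper limit. Among marker miRNAs, the summed level of 6 early embryo and pluripotency miRNAs was, from high to low, BL_1 379417 RPM, BL_2 344855, ES-like cells 134259, PEBs 64328 and PFFs 7684, whereas that of 7 fibroblast and mesenchymal miRNAs ran from 41690.5 RPM in BL_1 to 755704 in PFFs. Most of the first sum was ssc-miR-371-5p in the BLs but ssc-miR-92a and ssc-miR-363 in ES-like cells. ssc-miR-363 stood at 41258 RPM for ES-like cells and 280.0 for PFFs, and ssc-miR-143-3p, of the fibroblast list, at 13226 and 101507 RPM, higher in the cell type of its list in both cases. Other members did not follow their list. ssc-miR-199a-3p, ssc-miR-199b-3p and ssc-miR-214 were highest in PEBs, the first with 80420 RPM against 52517 for PFFs. ssc-miR-17-5p, of the early embryo list, had 308 RPM for BL_1 and 486 for BL_2 but 806 for PFFs. Of the 8 early embryo names sought, 2 were not in the table, miR-302 and miR-367, so the first sum lacks them. 3 liver and endoderm miRNAs summed to 107725 RPM for ES-like cells and 57248 for PEBs but to 1961 for BL_1, 1385 for BL_2 and 15.6 for PFFs, and the part of such cells in the results was not tested.

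An absent count in a cell type means only that no prediction was listed there, and it is not a count of 0. The lowest count listed was 6 reads from BL_1, 7 from BL_2, 3 each from ES-like cells and PEBs and 2 from PFFs. Because depths differ, these minimums correspond to 52.8 RPM for BL_1, 2.52 for BL_2, 0.471 for ES-like cells, 0.189 for PEBs and 0.0739 RPM for PFFs. These are the lowest levels listed, and a limit set by the authors is not given in the sources used here.

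The largest set of shared loci lay in the 3 cultured cell types without the BLs. It held 57 loci in ES-like cells, PEBs and PFFs. Another 36 loci lay in ES-like cells and PEBs alone, 32 in all 4 types, 24 in ES-like cells and PFFs and 24 in BLs, ES-like cells and PEBs. PEBs and PFFs shared 21 loci, and BLs and PFFs 12. The remaining combinations were small, with 8 loci in BLs and ES-like cells, 6 in BLs and PEBs, 6 in BLs, PEBs and PFFs, and 3 in BLs, ES-like cells and PFFs. ES-like cells and PEBs, which are related by derivation, were listed together at 149 loci. ES-like cells with PFFs and PEBs with PFFs each had 116 loci in common, and BLs had 67 with ES-like cells, 68 with PEBs and 53 with PFFs. With equal counts taken once, the 3 pairs of cultured types had 128, 102 and 102 in the same order. These overlaps also depend on the number of shared loci in each type, 184 for ES-like cells, 182 for PEBs, 155 for PFFs and 91 for BLs.

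**Figure D1:**
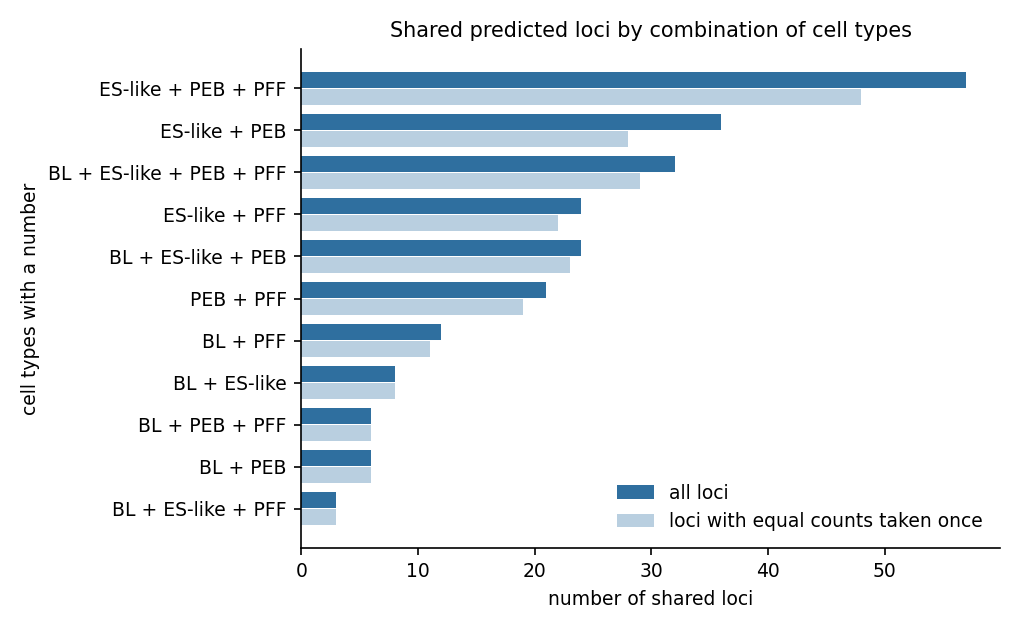
Horizontal bars give the number of shared loci for each combination of cell types with a count, for all loci and with loci of equal counts taken once. ES-like cells, PEBs and PFFs together form the longest bar with 57 loci, or 48 with equal counts taken once.

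The share of a cell type's predictions that were shared differed widely. It was 76.3% for ES-like cells (184 of 241), 72.5% for PEBs (182 of 251), 49.4% for PFFs (155 of 314) and 25.3% in BLs (91 of 360). The 2 BL libraries differed in this, since 32 of 44 predictions were shared in BL_1 (72.7%) and 90 of 352 for BL_2 (25.6%). Of the predictions that were not shared, 262 were in BL_2 and 12 in BL_1. When BL_2 was left out, the loci in all 4 types numbered 13, those in BLs and PFFs 1, and those in BLs and ES-like cells 0.

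Loci listed in more cell types had higher counts. The highest count of a locus in any library had a median of 12 reads for loci in 1 cell type, 35 for those in 2, 70 for those in 3 and 501 for those in all 4. At least 100 reads were reached by 11.9%, 34.6%, 40% and 71.9% of these loci. The mean RPM over the cell types with a count had medians of 3.23, 2.95, 5.62 and 38.4. In RPM, loci in 2 types were therefore not above those in 1 type. Loci just inside the threshold, in 2 types, had a highest count between 8 and 10342 reads, and loci just outside it, in 1 type, one between 2 and 316275. Since a prediction needs reads in each library, the number of types and the count are not independent, and nothing more was read from this order.

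Some abundant predictions fell outside the definition. By reads, the highest was chr8:115200392-115200451 with 316275 reads in BL_2 and no listed count elsewhere. GL894213.2:15693-15752 had the same count, followed by chr7:41355712-41355767 with 43466 reads in BL_2 and chr8:115200210-115200271 with 19486 reads in BL_2. The order differs in RPM, where chr9:52977572-52977666 with 3605 reads in BL_1 (31694 RPM) lay above the chromosome 7 locus (15623 RPM). In PFFs alone, chr1:230038340-230038405 had 5793 reads. The 2 loci on chromosome 8 lie between shared loci.

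A single locus held most reads of the shared loci in 4 of the 5 libraries. It was chr8:115200079-115200140 (coordinates throughout are those of the deposited table on Sscrofa10.2), a span of 61 bases, with 27970 reads from BL_1, 497400 from BL_2, 3980216 from ES-like cells, 1751630 from PEBs and 24 from PFFs. These counts correspond to 245905 RPM for BL_1, 178783 for BL_2, 624593 for ES-like cells, 110513 for PEBs and 0.887 RPM for PFFs. The 2 BL libraries, ES-like cells and PEBs were all far above PFFs, where the locus was below 1 RPM. ES-like cells were 5.65-fold above PEBs, with a 95% exact counting interval of 5.64 to 5.66 that covers sampling of reads only. Other scales shift all ratios of a pair, on the log2 scale by -0.72 (TMM of edgeR) and -0.03 (DESeq2) for ES-like cells to PEBs, by -1.47 and -1.04 for ES-like cells to PFFs and by -0.76 with TMM, and further in the same direction with DESeq2, for PEBs to PFFs. This shift is not part of the counting intervals. The scaffold locus GL894213.2:16004-16065 had the same count in all 5 libraries and the same span, so these are not 2 independent measurements.

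With loci of near-equal counts taken once, reads of shared loci amounted to 27.6% of the reported mature reads for BL_1, 20.0% for BL_2, 67.8% for ES-like cells and 14.0% for PEBs, but 0.170% for PFFs. The chromosome 8 locus made up 89.1%, 89.4%, 92.2% and 79.1% of these in the first 4 libraries. Shared loci other than the most abundant one of each library together came to 3.01% of the mature reads for BL_1, 2.12% for BL_2, 5.31% for ES-like cells, 2.91% for PEBs and just 0.127% for PFFs. In PFFs the most abundant shared locus was another one, GL892871.2:56019-56077, with 25.4% of the shared reads.

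The shared neighbours of this locus within 670 bases also had their highest level in ES-like cells, while the 2 loci of BL_2 alone given above lie in the same stretch. chr8:115200553-115200622 had 283 reads from BL_1, 9049 from BL_2, 145229 from ES-like cells and 57516 from PEBs, and no listed count in PFFs. In RPM it stood at 2488, 3253, 22790.0 and 3629. chr8:115200689-115200749 had 8312 reads from ES-like cells (1304 RPM) and 3366 from PEBs (212 RPM). ES-like cells were 6.28-fold (6.22 to 6.34) and 6.14-fold (5.90 to 6.39) above PEBs at these neighbours, against 5.65-fold at the first locus. On the scaffold GL894213.2, the locus at 15524-15591 had counts of 283, 9049, 145183 and 57507 reads, within 1% of those of the second chromosome 8 locus.

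Other loci of all 4 cell types were also abundant in ES-like cells and PEBs and below 1 RPM in PFFs. chr6:58064308-58064369 had 139 reads from BL_1, 4551 from BL_2, 54640 from ES-like cells, 144116 from PEBs and 9 from PFFs, or 1222, 1636, 8574, 9093 and 0.332 RPM. chr5:66194130-66194195 had 114 reads from BL_1, 1705 from BL_2, 45180 from ES-like cells, 104990 from PEBs and 11 from PFFs, or 1002, 613, 7090, 6624 and 0.406 RPM. The ratio of ES-like cells to PEBs was 0.943 at the first locus and 1.07 at the second, the BL mean was 0.167 and 0.114 of the level of ES-like cells, and PFFs had at most 11 reads. The shift of -0.72 with TMM would put both ratios of ES-like cells to PEBs below 1. A neighbour of the chromosome 5 locus, chr5:66193716-66193784, had 1972 reads from ES-like cells, 2031 from PEBs and 7 from PFFs. It repeated the gap to PFFs, with 309 RPM for ES-like cells, 128 for PEBs and 0.259 RPM for PFFs.

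The next loci had more reads in PFFs, which by itself makes a ratio to PFFs smaller. chr9:44167438-44167500 had 32, 831, 15479, 40553 and 331 reads in BL_1, BL_2, ES-like cells, PEBs and PFFs. Its level was 281 RPM for BL_1, 299 for BL_2, 2429 for ES-like cells, 2559 for PEBs and 12.2 RPM for PFFs. PEBs were 209-fold above PFFs (188 to 234). At GL892871.2:56019-56077, with 1596 reads from BL_2, 11909 from ES-like cells, 30256 from PEBs and 11678 from PFFs, the ratio of PEBs to PFFs was 4.43 (4.33 to 4.52), or 2.15 on the log2 scale in RPM, 1.39 with TMM and 1.14 with DESeq2. This locus had no listed count in BL_1, where the BL_2 level would give 65.2 reads.

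Some loci were higher in PFFs than in another cultured type. chr2:50496478-50496541 had 10 reads in PEBs (0.631 RPM) and 1334 in PFFs (49.3 RPM), a ratio of 78.1 (42.3 to 163). chr4:99284552-99284605 had 16 reads in ES-like cells (2.51 RPM) and 1095 in PFFs (40.4 RPM), a ratio of 16.1 (9.88 to 28.3). These were the loci with the largest ratios toward PFFs in their pairs among loci with at least 10 reads in both. Smaller ratios of the same direction were found at GL894231.1:16615-16675, where 35 reads in PEBs and 628 in PFFs gave 10.5-fold (7.47 to 15.2), and at chr11:14607143-14607205, where 13 reads in ES-like cells and 189 in PFFs gave 3.42-fold (1.95 to 6.55).

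Another set of shared loci had its highest level in the BLs. chr9:116865184-116865234 had 830 reads from BL_1, 4468 from BL_2, 511 from ES-like cells, 665 from PEBs and 1617 from PFFs. The BL levels of 7297 and 1606 RPM lay above those of ES-like cells (80.2 RPM), PEBs (42.0) and PFFs (59.7), although BL_1 was itself 4.54-fold above BL_2. chr4:1220244-1220307 had 374 reads from BL_2 (134 RPM), 16 from ES-like cells (2.51), 40 from PEBs (2.52) and 21 from PFFs (0.776), and no count in BL_1. At chr2:155544551-155544601, with 60 reads from BL_1, 2300 from BL_2, 173 from ES-like cells and 2783 from PEBs, the BLs were also highest, but PEBs were 6.47-fold above ES-like cells (5.55 to 7.59). The last ratio was the largest of PEBs over ES-like cells among loci with at least 10 reads in each. chr13:24885254-24885316 also lay higher in PEBs than in ES-like cells, by 2.65-fold (2.48 to 2.82), with 14, 447, 1050, 6907 and 3929 reads in BL_1, BL_2, ES-like cells, PEBs and PFFs.

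Several loci of 2 cell types skipped a related type. chr7:24380512-24380576 had 3970 reads in BL_2 (1427 RPM) and 10342 in PEBs (652 RPM) but no listed count in BL_1, ES-like cells or PFFs. chr18:55400309-55400379 had 4372 reads from ES-like cells (686 RPM) and 4633 from PFFs (171 RPM) and none listed in PEBs, which were made from ES-like cells. chr9:21654110-21654154 had 115 reads from BL_1, 328 from BL_2 and 495 from PFFs, and it was listed neither in ES-like cells nor in PEBs. By the highest RPM in a single library, the leading locus of PEBs and PFFs was the chromosome 2 locus given above, and that of BLs and ES-like cells was chr13:80688664-80688726 with 166 reads from BL_2 and 115 from ES-like cells.

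For loci without a listed count in a cell type, the count that their highest RPM elsewhere would give was worked out. It was at least 100 reads for 59 of the 74 loci missing in PFFs. The same held for 26 of 138 loci missing in BLs, 16 of 45 for ES-like cells and 25 of 47 for PEBs. The same RPM gives more reads in a deeper library, so these shares depend on depth and are not comparable between cell types. The table does not tell whether such a locus had a lower level there or was not called.

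On chromosome X, 6 shared loci between positions 137140012 and 137237170, a stretch of 97.2 kb, held many reads in BLs and ES-like cells and few or no listed reads in PEBs. This stretch was noticed in the counts and linked afterwards at a distance of 100 kb. Their summed level was 9249 RPM for BL_1 (4 loci with a count), 4451 for BL_2 (6 loci), 3017 for ES-like cells (6 loci) and 3.47 for PEBs (55 reads in 4 loci), and PFFs had no count at any of the 6. Each of the 4 loci with a count in BL_1, BL_2, ES-like cells and PEBs was lowest in PEBs. The other 2 had no listed count in BL_1 or PEBs and were lower in BL_2 and ES-like cells, chrX:137140012-137140072 with 147 and 373 reads and chrX:137175096-137175156 with 16 and 364.

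Among loci with at least 10 reads in both, the largest ratio of ES-like cells to PEBs in the stretch was at chrX:137160752-137160812. It had 225 reads from BL_1, 2885 from BL_2, 8307 from ES-like cells and 20 from PEBs, or 1978, 1037, 1304 and 1.26 RPM. ES-like cells were 1033-fold above PEBs (668 to 1692), also the largest such ratio among all shared loci. chrX:137225803-137225862, with 2781 reads from ES-like cells and 5 from PEBs, had a ratio of 1383 with a wider interval (592 to 4264). chrX:137237110-137237170 followed with 259, 3135, 5629 and 20 reads and a ratio of 700 (453 to 1147). At chrX:137160439-137160498, with 470, 4377, 1769 and 10 reads, ES-like cells still exceeded PEBs by 440-fold (239 to 919). The BL mean lay above ES-like cells at each of these loci, from 1508 against 1304 RPM at chrX:137160752-137160812 to 2853 against 278 RPM here. The ratio of ES-like cells to PEBs was thus 440 or more at these 4 loci, and 5.65 to 6.28 at the chromosome 8 loci.

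A second X stretch, chrX:136185265-136188586, was high in the BLs and low in all cultured cells. Its 3 shared loci had 49, 119 and 197 reads from BL_1 and 1168, 2178 and 3786 reads from BL_2, in order of position. In PEBs they had 25, 31 and 48 reads. ES-like cells had a count at the last locus only, 5 reads, and PFFs had 13 reads at the middle and 7 at the last locus. In RPM the last locus stood at 1732 for BL_1 and 1361 for BL_2 against 0.785 for ES-like cells, 3.03 for PEBs and 0.259 RPM for PFFs. 3 further loci within 10 kb of these were listed in BLs alone, with at most 313 reads.

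A further X stretch, chrX:48632394-48643285, was listed in all 3 cultured cell types at each of its 3 shared loci. At chrX:48640826-48640886 the counts were 12 reads from BL_1, 266 from BL_2, 1824 from ES-like cells, 1786 from PEBs and 2464 from PFFs, or 106, 95.6, 286, 113 and 91.0 RPM. ES-like cells were 2.54-fold above PEBs (2.38 to 2.71), and BL_1, BL_2, PEBs and PFFs lay between 91.0 and 113 RPM. chrX:48643219-48643285 had 969 reads from ES-like cells, 2992 from PEBs and 1429 from PFFs, and chrX:48632394-48632455 had 8, 159, 169 and 177 reads from BL_2, ES-like cells, PEBs and PFFs. The 3 X stretches therefore differed in which cell types held the reads.

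**Figure D2:**
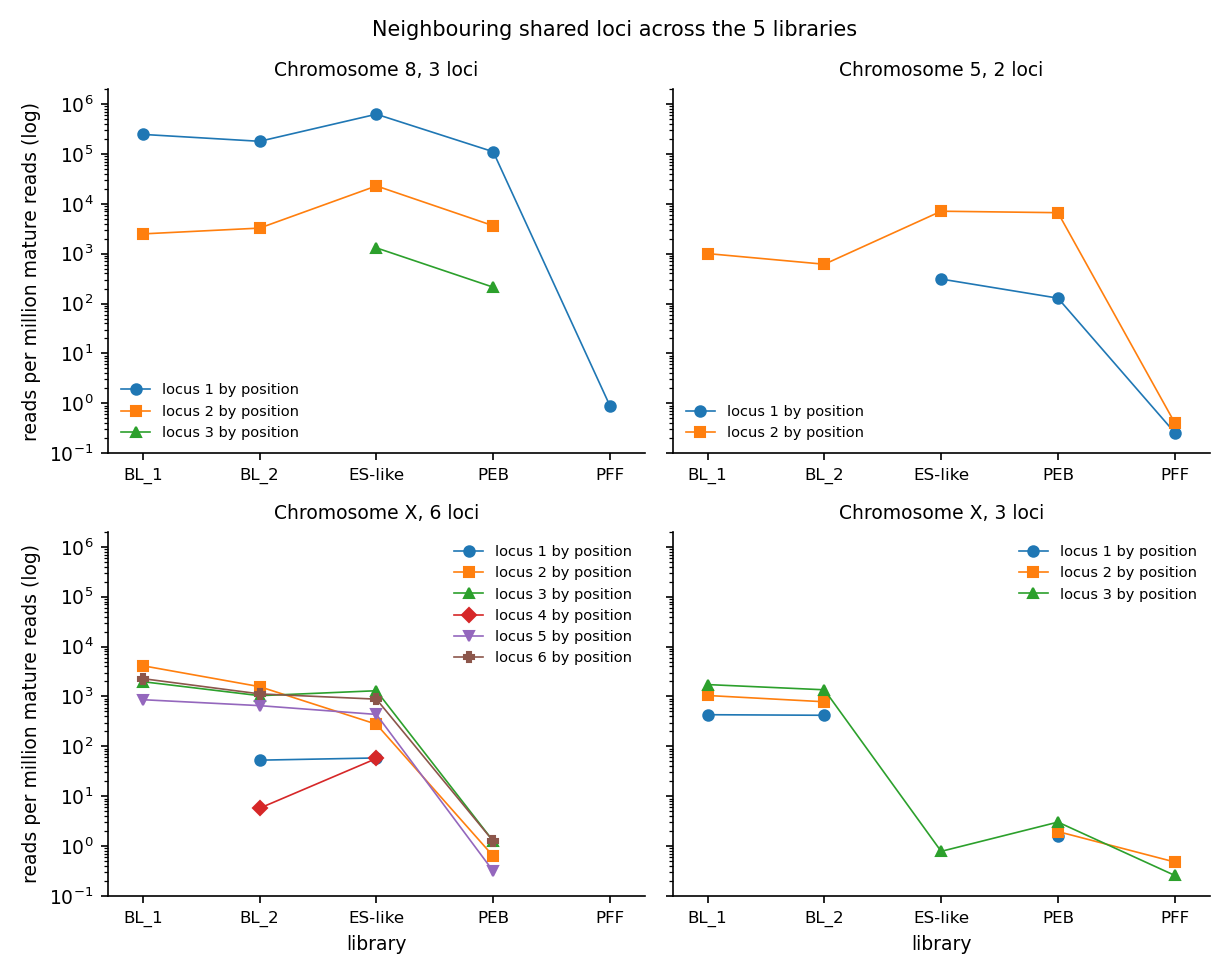
Each panel plots neighbouring shared loci, with the 5 libraries on the x axis and RPM on a log y axis, and a library without a listed count has no point. The chromosome 8 and chromosome 5 loci are high in up to 4 libraries and below 1 RPM in PFFs where listed, the first X stretch is high in BLs and ES-like cells, and the second X stretch in BLs.

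Chromosome X held 27 of the 229 shared loci (11.8%) and 4.51% of the loci listed in 1 type. Of all 52 X loci, 51.9% were shared. The X total includes 7 loci whose counts equal those of another X locus. Among the 27, 22 had a count in PEBs, 21 in ES-like cells, 16 in BLs and 10 in PFFs, and 7 were listed in ES-like cells and PEBs alone. Unplaced scaffolds held 31 shared loci (13.5%) on 25 scaffolds and 9.21% of the loci listed in 1 type.

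Within 10 kb of each other, 32 shared loci (14.0%) formed 12 clusters, of which 5 lay on chromosome X. When loci of 1 cell type were included, 14.8% of the shared loci and 5.78% of the others lay in a cluster. The table does not give the strand of a locus, so neighbours could lie on opposite strands. In 5 of the 12 clusters every locus had the same combination of cell types. 9 clusters had a locus of at least 1000 reads, 2 clusters were of overlapping calls, and 3 consisted only of loci with equal counts.

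The largest cluster of shared loci was on the scaffold GL894231.1, with 5 shared loci between 11740 and 25764 and 6 others listed in PFFs alone. Its shared loci did not follow 1 pattern. The locus at 17496-17556 had 1638 reads from ES-like cells (257 RPM) and 8237 from PEBs (520 RPM), with no count in PFFs. The locus at 16615-16675 had 8 reads from BL_1 (70.3 RPM), 228 from ES-like cells (35.8 RPM), 35 from PEBs (2.21 RPM) and 628 from PFFs (23.2 RPM). The locus at 25700-25764, with 9, 22 and 257 reads from ES-like cells, PEBs and PFFs, was 6.84-fold higher in PFFs than in PEBs (4.42 to 11.1). The locus at 12261-12325 had 8 reads from BL_2 and 243 from PFFs, and that at 11740-11798 had 49 from ES-like cells and 206 from PEBs.

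On chromosome 12, both members of a cluster were listed in all 3 cultured types with a similar order. chr12:37079097-37079158 had 825 reads from ES-like cells (129 RPM), 1276 from PEBs (80.5 RPM) and 659 from PFFs (24.3 RPM). chr12:37088091-37088194 had 683 reads from ES-like cells (107 RPM), 754 from PEBs (47.6 RPM) and 584 from PFFs (21.6 RPM). ES-like cells were 5.32-fold (4.79 to 5.90) and 4.97-fold (4.44 to 5.56) above PFFs. On the log2 scale these ratios were 2.41 and 2.31 in RPM, 0.94 and 0.84 with TMM, which is within 2-fold, and 1.38 and 1.28 with DESeq2.

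Equal counts in every library were found for 48 of the 229 shared loci, which formed 22 groups. Of loci listed in 1 type 79.1% had such an equal, but there a single count is usually all that has to match, so the shares are not comparable. 20 groups were pairs, 1 had 3 loci and 1 had 5. In 15 groups all loci lay on 1 chromosome, and in 13 of these every gap was over 10 kb, from 24090 to 428993 bases. A scaffold was involved in the remaining 7 groups, and 0 groups joined 2 placed chromosomes. The spans of the loci were the same in 20 of the 22 groups. Counts alone do not tell whether such loci are copies in the genome or repeated pieces of its assembly, and the reads of 1 locus cannot be told apart from those of the other.

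The group of 5 lay on chromosome X between 109599684 and 109734892, and each of its loci had 14 reads from ES-like cells and 21 from PEBs over a span of 68 bases. The group of 3 joined chr2:88902994-88903056 with the overlapping calls JH118729.1:80987-81049 and JH118729.1:80950-81049. Each had 4982 reads from ES-like cells and 3477 from PEBs, and the ratio of ES-like cells to PEBs was 3.56 (3.41 to 3.72). Pairs with many reads included chr9:72339104-72339166 and chr9:72461653-72461715, with 118 reads from ES-like cells, 757 from PEBs and 550 from PFFs. At chr3:141748078-141748136 and chr3:142177129-142177187, which were the farthest apart, the counts were 356, 396 and 214. With equal counts taken once, 203 loci were left, and 202 with counts within 1% of each other taken once.

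Shared loci had higher miRDeep2 scores than the others. The best score of a locus over its libraries had a median of 3 for shared loci (quartiles 2.2 and 44.8) and 1.9 for loci in 1 type (1 and 2.7). Its median was 2.6 for loci in 2 types, 4.6 for those in 3 and 90.7 for those in all 4, and a best score of at least 10 was reached by 22.4%, 43.3% and 75% of them, against 8.84% in 1 type. Part of the scores rose with the counts, as described below, and a shared locus has at least 2 scores to choose its best from, so no test was made. The best score was at least 10 at 87 of the shared loci.

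Scores of shared loci fell into 2 bands. Of 424 scores that rested on at least 20 reads, 181 (42.7%) were over 0.3 per read, with a median of 0.512 per read and a range of 0.318 to 0.600. The other 243 lay between 0 and 3 with a median of 2.2, whatever the count, up to 57516 reads. Among loci of 1 type, 50 of 180 scores (27.8%) were in the upper band. The upper band held 50% of such scores of shared loci for BL_1, 42.5% for BL_2, 47.3% for ES-like cells, 41.2% for PEBs, with 37.8% for PFFs.

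**Figure D3:**
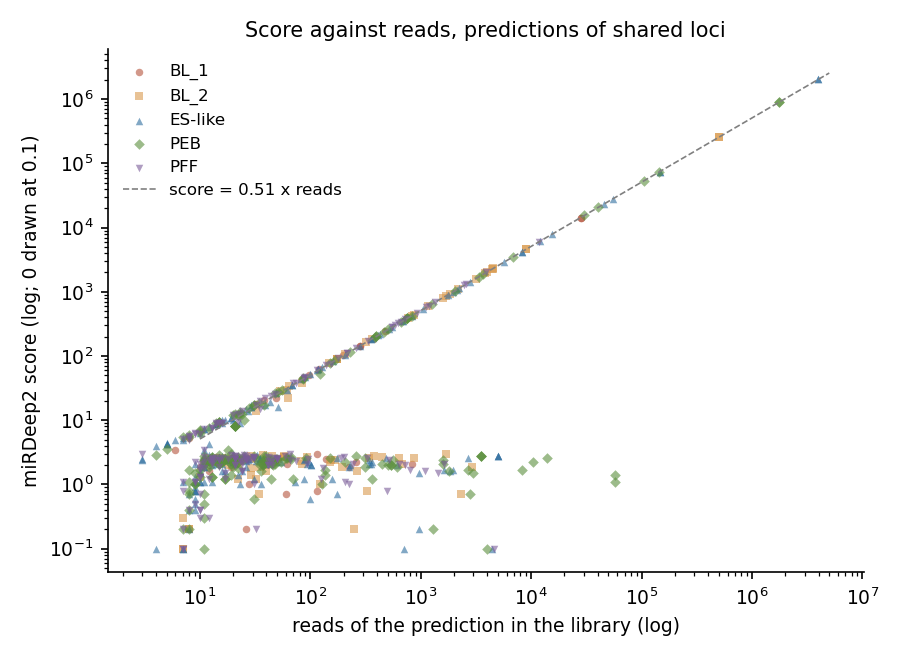
Each point is 1 prediction at a shared locus in 1 library, with its reads on a log x axis and its miRDeep2 score on a log y axis (a score of 0 is drawn at 0.1). The points form a band along a score of about 0.51 per read and a flat band at scores of up to 3.

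The same locus could lie in both bands. Of 137 shared loci with at least 20 reads in 2 or more libraries, 38 were in the upper band in every library, 63 in none, and 36 were mixed. chr8:115200553-115200622 scored 74041.7 in ES-like cells with 145229 reads but 1.1 in PEBs with 57516 reads. chr7:24380512-24380576 scored 2021.4 in BL_2 and 2.2 in PEBs, although PEBs held 10342 reads. At chr6:58064308-58064369 the score was 2.5 in BL_1 and 73475.7 in PEBs. A low score in a cell type did not therefore mean few reads there, and a minimum score of 10 would remove these loci from some of their cell types.

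Among shared loci with at least 100 reads, the 3 lowest best scores belonged to chr18:55400309-55400379 and chr1:218563769-218563828, both at 0, and chr10:15715000-15715044, at 0.2 in every library. They had up to 4633, 4004 and 1289 reads. chr1:218563769-218563828 was listed in ES-like cells with 711 reads and in PEBs with 4004, and chr10:15715000-15715044 had 26 reads from BL_1, 248 from BL_2, 959 from ES-like cells and 1289 from PEBs. Many reads in several libraries thus went with scores of 0 to 0.2 at these loci.

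Within a listed locus, the extent was nearly the same in each library. Overlapping calls with another start, such as JH118729.1:80950-81049 and JH118729.1:80987-81049, are listed as separate loci. The closeness thus depends on how calls were joined into loci, which was not tested. Shared loci spanned a median of 62 bases, from 38 to 126, and loci of 1 type a median of 63. At 212 shared loci with 1 interval per library, the interval was identical in every library at 130 (61.3%), differed by 1 to 5 bases at 81 and by 7 at 1. A further 17 shared loci had a library with 2 counts in a cell, of which the larger was used.

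Ratios between cell types were then taken for loci with a count in both, with the mean of the BL libraries that had a count, and read beside the same ratios for reported miRNAs with a read in both. A 2-fold difference served as the limit. All shares and medians of reported miRNAs are in RPM and would shift with the scale as those of the loci do. Reported miRNAs enter with as little as 1 read, while predicted loci have the minimum counts given above. In RPM those minimums differ in every pair, with the order BL_1, BL_2, ES-like cells, PEBs and PFFs from high to low, and in each pair below the cell type named first has the higher one. Loci low in that type are therefore less often among those compared, and the part of this in the medians and splits was not tested in any pair.

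Of 149 loci in ES-like cells and PEBs, 74 were over 2-fold higher in ES-like cells, 15 were so in PEBs and 60 lay within 2-fold. The corresponding shares of reported miRNAs were 25.2% and 20.3%. The median log2 ratio of the loci was 0.97, and that of reported miRNAs 0.23. Counted on the TMM scale of edgeR, which shifts every ratio of this pair by -0.72, the split was 35 and 28, and with predicted loci counted in the totals it was 41 and 27, while on the scale of DESeq2 it was 73 and 15. The size of the excess toward ES-like cells thus depends on which scale is used.

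Against PFFs, ES-like cells were over 2-fold higher at 76 of 116 loci and lower at 7. Reported miRNAs were higher in 52.5% and lower in 15.9%. The median log2 ratio was 1.63 for the loci, and that of reported miRNAs was lower by 0.53. On the TMM scale the split was 32 and 25, on that of DESeq2 42 and 15, and with predicted loci in the totals 51 and 12.

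For PEBs and PFFs, 47 of 116 loci were over 2-fold higher in PEBs and 14 in PFFs, but on the TMM scale the split turned to 29 and 36, and on that of DESeq2 to 26 and 42. Reported miRNAs were higher in 44.3% and lower in 15.1%, and the medians were 0.60 for loci and 0.77 for reported miRNAs. In RPM the median of the loci was lower by 0.16 than that of reported miRNAs.

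In the pairs with BLs the loci lay toward the BLs in the median, whereas reported miRNAs did so against PFFs alone. BLs were over 2-fold higher at 32 of 67 loci and lower at 15 against ES-like cells, while 26.6% of reported miRNAs were higher and 46.9% lower. On the TMM scale this split was 45 and 9, and on that of DESeq2 42 and 11. Against PEBs, BLs were higher at 46 of 68 loci and lower at 10, with 29.1% and 45.9% for reported miRNAs. Against PFFs they were higher at 46 of 53 and lower at 3, with 42.9% and 31.1%. The median log2 ratios were 0.95, 2.82 and 4.07 for the loci against -0.80, -0.72 and 0.57 for reported miRNAs. Without BL_2 the loci over 2-fold apart numbered 21 of 28 compared against ES-like cells, 26 of 31 against PEBs and 13 of 15 against PFFs, where both libraries gave 47 of 67, 56 of 68 and 49 of 53. The 6 pairs share libraries.

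**Figure D4:**
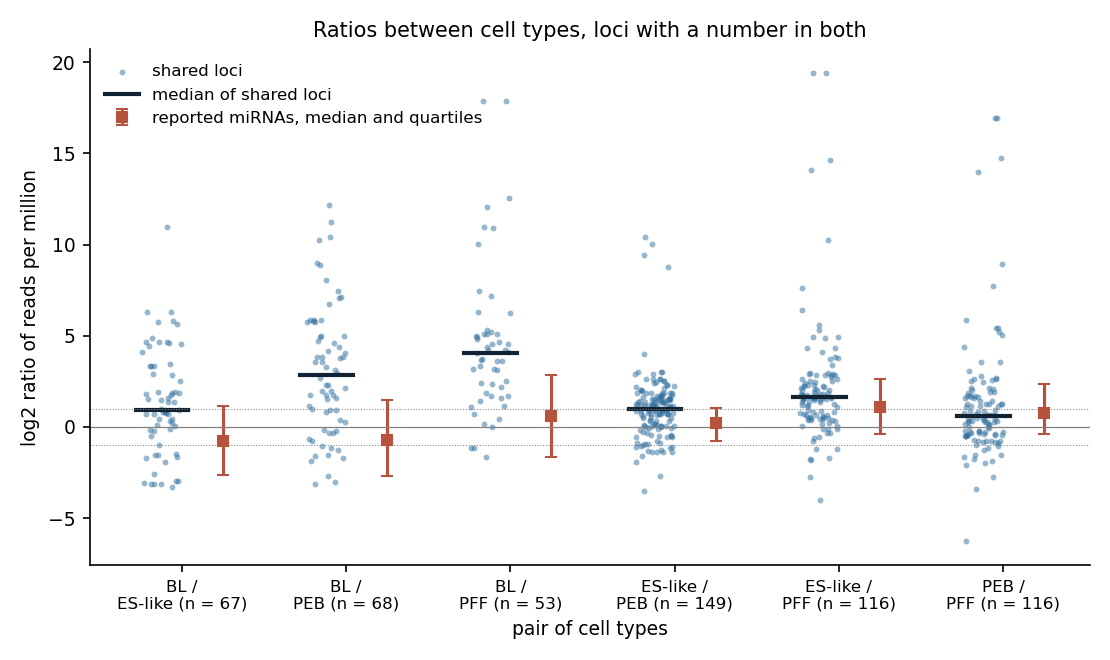
Each dot is the log2 ratio of RPM at 1 shared locus for 1 of the 6 pairs of cell types, the bar is the median of the loci and the square with error bars gives the median and quartiles of reported miRNAs. The median of the loci lies above that of reported miRNAs in the first 5 pairs and 0.16 below it for PEBs and PFFs.

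Among the 32 loci of all 4 types, the highest RPM was in BLs at 17, in ES-like cells at 9, in PEBs at 6 and in PFFs at 0. On the TMM scale these counts were 18, 6, 8 and 0, and with DESeq2 19, 8, 5 and 0. These loci had to be listed in BLs, where the lowest level listed is the highest of the cell types, whereas that of PFFs is the lowest, and the part of this in the counts was not tested. Among the 57 loci of the 3 cultured types, ES-like cells were highest at 42, PEBs at 9 and PFFs at 6 in RPM, but 24, 11 and 22 on the TMM scale. The scale thus decided how often PFFs were highest in the second group and not in the first.

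In all libraries but BL_1, most shared loci were below the typical reported miRNA. The median level of shared loci was 545 RPM for BL_1, 30.0 for BL_2, 4.47 for ES-like cells, 1.96 for PEBs and 0.960 RPM for PFFs, whereas reported miRNAs with a read had medians of 123, 58.2, 97.4, 90.6 and 31.7 RPM. In these libraries 27, 38, 31, 25 and 12 shared loci exceeded the median of reported miRNAs. The high median in BL_1 goes with its minimum of 52.8 RPM.

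BL_1 and BL_2 are the only replicates. Of 91 shared loci in BLs, 31 had a count in both, 59 in BL_2 only and 1 in BL_1 only, which was GL894231.1:16615-16675 with 8 reads. At the depth of BL_1, 46 of the 59 would have fewer than 6 reads, the lowest count listed there. The other 13 would reach 6 reads or more, led by chr7:24380512-24380576 with 162 reads, GL892871.2:56019-56077 with 65.2 and chr3:134560398-134560459 with 35.2.

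At the 31 loci in both, the log2 ratio of BL_1 to BL_2 had a median of 0.46 and an SD of 0.96, from -0.65 to 3.10. BL_1 was higher at 25 and over 2-fold higher at 11, and BL_2 was over 2-fold higher at 0. Reported miRNAs with a read in both (n = 209) had a median of 0.02 and an SD of 1.08, with 33 over 2-fold higher in BL_1 and 30 in BL_2. The counting interval excluded equal levels at 24 of the 31. The widest gap was at chr9:21654110-21654154, which was 8.58-fold higher in BL_1 (6.87 to 10.6), and the opposite end was chr2:155544551-155544601, at 0.638 (0.485 to 0.824). Loci low in BL_1 are less likely to be among the 31. The 31 also count loci with equal BL counts separately. These are chr8:115200079-115200140 with GL894213.2:16004-16065, and chr8:115200553-115200622 with GL894213.2:15524-15591. The median of 0.46 is the value of the first pair, so it depends on this counting.

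**Figure D5:**
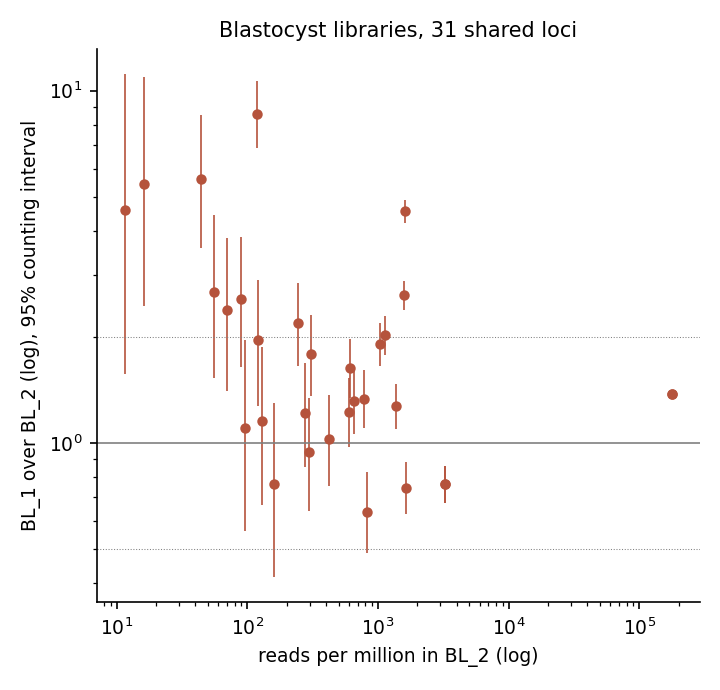
For 31 shared loci with a count in both BL libraries, the ratio of BL_1 to BL_2 on a log y axis is plotted against RPM in BL_2 on a log x axis, with 95% exact counting intervals. 25 loci lie above 1, 11 of them above 2, and 0 lie below 0.5. Loci with equal counts in both libraries are counted separately.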

How the data were processed

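Small RNA libraries of 5 pig samples were used, grouped by the submitters' labels. The authors trimmed reads with Cutadapt 1.10, aligned them with Bowtie 1.1.1 and handled them with SAMtools 1.2 and HTSeq 0.6.1p1 (versions per the submitters' processing notes), on Sscrofa10.2 (Ensembl annotation). They called reported and predicted miRNAs with miRDeep2. The table of reported miRNAs was deposited as raw counts. The table of predicted loci was deposited with a read count and a miRDeep2 score per library, and a cell there could hold text with 2 counts, which the authors do not explain. In 33 such cells (24 at shared loci) the larger count was used. 1 prediction without a count was left out. Strand and the base from which coordinates are counted are not given in the sources used here, and position relative to genes and sequences were not analysed here, since the gene table at hand is of another assembly.

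Counts were divided by the reported mature miRNA reads of the library and multiplied by 1000000. A BL value is the mean of the BL libraries with a count. No pseudocount was used and no count model was fitted, because 3 cell types have 1 library. Intervals of ratios between cultured cell types and between BL libraries are 95% exact conditional binomial intervals and cover counting error only, since PCR reads are not independent molecules. Clusters were linked at gaps of up to 10 kb. Scores were compared at 20 reads or more.

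Members, lists and rules were chosen with earlier results of these data known. Named loci were the 10 with the highest mean RPM, the locus with the highest RPM in a single library for each combination, all members of clusters with a locus of 1000 reads, the 2 largest ratios per pair and direction with 10 reads in both, and the 3 highest and 3 lowest scores with 100 reads. Highest loci listed in 1 cell type, equal-count groups and the 97.2 kb stretch of chromosome X were named after their values were seen. Marker miRNAs of blood cells (3 of 4 in the table, at most 57.5 RPM summed) and skeletal muscle (3 of 3, 188 to 2442 RPM) were also summed. Alternatives were other scales (TMM of edgeR 4.0.16, size factors of DESeq2 1.42.0), minimum reads and scores, thresholds, cluster distances and the omission of a BL library. The linkage at 100 kb, a minimum of 20 reads in BLs, denominators that include predicted loci, equal counts taken once in the ratios and scores, and counts within 1% taken once were chosen after seeing the data. The steps were tested on simulated data. Calculations used Python 3.11.15, pandas 2.3.3, numpy 2.4.6, scipy 1.17.1, matplotlib 3.10.9 and R 4.3.3.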

Additional observations from a re-analysis of the deposited data

How the results depend on the processing

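The number of shared loci was 199 with a minimum of 10 reads and 87 with a best score of at least 10 over the libraries, cell types being kept as listed, and the number without either BL library ran from 206 to 229. This score left 22 loci in ES-like cells, PEBs and PFFs, 7 in ES-like cells and PEBs, 7 in ES-like cells and PFFs, 14 in BLs, ES-like cells and PEBs, 1 in PEBs and PFFs, 3 in BLs and PFFs, 3 in BLs and ES-like cells, 2 in BLs, PEBs and PFFs, 3 in BLs and PEBs and 1 in BLs, ES-like cells and PFFs. A minimum of 10 reads left 21 loci in all 4 types. Without BL_2 or BL_1 in turn, the count was 13 to 31 in all 4 types, 15 to 24 in BLs, ES-like cells and PEBs, 1 to 12 in BLs and PFFs, 0 to 8 in BLs and ES-like cells, 1 to 6 in BLs, PEBs and PFFs, 2 to 6 in BLs and PEBs and 0 to 3 in BLs, ES-like cells and PFFs, the lower value being without BL_2 each time. Loci over 2-fold apart ran likewise from 21 to 47 for BLs and ES-like cells, 26 to 55 for BLs and PEBs and 13 to 48 for BLs and PFFs. A 4-fold threshold gave 29 loci for BLs and ES-like cells, 27 for ES-like cells and PEBs, 47 for ES-like cells and PFFs and 30 for PEBs and PFFs, and it split those of BLs and PEBs into 38 and 3. With at least 100 reads, 15 loci remained in groups of equal counts. Clusters numbered 9 at 1 kb, 18 at 50 kb and 16 at 100 kb. Among all other counts and medians, 101 values stayed within 1.5 times or within the spread. The split of loci over 2-fold apart turned from 47 and 14 toward PEBs to 29 and 36 (TMM) and 26 and 42 (DESeq2) toward PFFs, although their total, 61, was 65 and 68. The ratio of the highest to the lowest cell type was recomputed at each of the 44 named loci. Of the alternative values, 72 stayed within the counting error of the ratio, 51 moved and none changed direction. That error is wide at loci with few reads, so a value that stayed within it can still have shifted with the scale. Other ratios near 1, such as ES-like cells over PEBs at chr5:66194130-66194195 (1.07), turn with TMM. Clusters of the same strand were not run, as the table gives no strand. No paired analysis was possible because each cultured cell type has 1 library.

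BL_1 has 113743 mature reads, so that 1 read there is worth 8.79 RPM. The lowest level listed there was 52.8 RPM, and combinations with BLs rest mainly on BL_2.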

Other observations

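A pair of predictions on chromosome 7 had the same count in BL_2 but not the same cell types. chr7:24380512-24380576, a shared locus, had 3970 reads in BL_2 and 10342 in PEBs, and chr7:22174545-22174609, listed in BLs alone, had 1350 reads in BL_1 and 3970 in BL_2. Their scores in BL_2 were 2021.4 and 2021.3. At the depth of BL_1 the shared locus would have 162 reads, where none was listed.

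Among loci listed in PFFs alone, 6 lay beside the shared loci of the scaffold GL894231.1, with 325 reads at 10060-10121, 895 at 15869-15927, 14 at 20449-20509, 1098 at 20908-20962, 219 at 23070-23131 and 68 at 31684-31742. The most abundant of these, with 1098 reads and a score of 560.8, had 40.6 RPM, above the 23.2 RPM of the highest shared locus of the scaffold with a count in PFFs. PFFs thus had counts at 9 loci of this scaffold, 6 of them not listed in any other cell type.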
